A study of Mus musculus with 6 samples.

Results

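The thermogenic genes of brown and beige adipocytes were examined in mammary tumors of BK5.ATF3 transgenic mice and in the normal glands adjacent to them. The genes were taken by symbol from the expression table and had been selected on their CPM in tumors against glands and on its spread among the glands, so both were known when they were chosen. Of 8 genes named (*Ucp1*, *Cidea*, *Ppargc1a*, *Dio2*, *Elovl3*, *Prdm16*, *Kcnk3* and *Cpt1b*), 7 had a row among the 15280 genes of the table. *Cpt1b*, which encodes the muscle form of carnitine palmitoyltransferase, was not analysed here. RNA-Seq libraries came from 3 female mice, each giving 1 tumor (T11035, T11640 and T9232) and 1 gland (M11035, M11640 and M9232), so n = 3 for each tissue. All of the animals carried the transgene, in which the bovine keratin 5 promoter drives ATF3 in basal epithelial cells, and all had raised a litter, so the contrast compares tissues and not genotypes. Tumors arose at 6 to 12 months of age and were taken at a length of 1.5 cm. The labels name no agent, and the genetic background of the strain is not given in the sources used here. Each library held between 4750989 and 7806908 fragments on genes. Expression is given as CPM, the fragments on a gene scaled by the effective library size. A floor of 3 fragments equals between 0.393 CPM in T11640 and 0.610 CPM in M11035. Floors and intervals cover counting error only, because PCR copies of a fragment are not independent molecules.

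Brown and beige adipocytes burn fatty acids to make heat. Noradrenaline from sympathetic nerves acts on β-adrenergic receptors, cyclic AMP then releases fatty acids from lipid droplets and induces thermogenic genes, and UCP1 lets protons flow back into the mitochondrial matrix without making ATP. The mammary glands of the mouse lie in subcutaneous fat pads, and beige adipocytes can appear in such depots.

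Of the 7 genes, 6 were lower in each tumor than in any gland, and *Dio2* was the exception. In the whole table the 3 tumors lay all below the 3 glands for 26.3% of the genes. Since this contrast chose the 7 genes, nothing is read from their count and no test was made of them. The median log2 fold change on log2(CPM + 0.5), a scale that understates the change of low genes, was -3.95 over the 7 genes and -0.00 over all genes. In bulk tissue, fewer adipocytes and less RNA per adipocyte cannot be told apart.

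*Ucp1* (mm9 chromosome 8, 85814247 to 85822355, plus strand), the uncoupling protein that defines thermogenic adipocytes, was at 432 CPM in gland M11035, 298.6 CPM in M11640 and 118 CPM in M9232. In tumors T11035, T11640 and T9232 it was at 0.372, 0.393 and 0.300 CPM, which is 2, 3 and 2 fragments. Every gland thus held a clear *Ucp1* signal, and every tumor was at or under the floor. The means were 283 ± 158 CPM (SD, n = 3) and 0.355 ± 0.0490 CPM, a log2 fold change of -8.18. From pooled fragments the gland level was 737 times the tumor level, with an exact 95% counting interval of 357 to 1834 that leaves out the spread between mice.

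Among the regulators, *Ppargc1a* (chromosome 5, 51845488 to 51958964, minus strand) encodes PGC-1α, a coactivator of mitochondrial genes that skeletal muscle also makes. It was at 71.2, 62.8 and 43.2 CPM in glands M11035, M11640 and M9232, and at 6.14, 3.01 and 1.80 CPM in the tumors of the same mice. The groups did not overlap, and *Ppargc1a* stayed above the floor in every tumor. Its means were 59.1 ± 14.3 and 3.65 ± 2.24 CPM (SD, n = 3), a log2 fold change of -3.95. *Prdm16* (chromosome 4, 153690234 to 154010982, minus strand) encodes a zinc finger protein that sets brown and beige adipocyte identity. Its glands held 5.69, 7.60 and 4.65 CPM and its tumors 1.12, 0.262 and 1.35 CPM, in the same order of mice. The groups of *Prdm16* did not overlap, and with 17 fragments over the 3 tumors its ratio of 6.84 had a counting interval of 4.08 to 12.2. The log2 fold change of *Prdm16* was -2.28.

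The genes of lipid handling were low in the tumors as well. *Cidea* (chromosome 18, 67503218 to 67527448, plus strand), a lipid droplet protein and marker of brown adipocytes, was at 36.0, 32.4 and 24.2 CPM in glands M11035, M11640 and M9232 and at 0.558, 0.655 and 0.899 CPM in the tumors. Its tumors, with 3, 5 and 6 fragments, lay close to the floor, and relative to their mean its gland values spread less than those of the other 6 genes. The means were 30.9 ± 6.03 and 0.704 ± 0.176 CPM (SD, n = 3), a log2 fold change of -4.69. Exons of *Cidea* overlap *B430212C06Rik* on the opposite strand, which had 2.64 to 3.25 CPM in the glands and 0.599 to 0.930 CPM in the tumors. Fragments there could belong to either gene because strand-specific counting is not stated, and in the tumors, where both genes had similar values, the level and fold change of *Cidea* are uncertain for this reason. *Elovl3* (chromosome 19, 46206387 to 46210184, plus strand), an elongase of very long fatty acids that cold induces in brown fat, was at 42.9, 17.0 and 9.58 CPM in the glands. In the tumors it had 1, 0 and 0 fragments, so *Elovl3* did not exceed the floor in any of them. The pooled gland level of *Elovl3* was 413 times the tumor level, with a counting interval of 73.7 to 16366 that the single tumor fragment makes wide.

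*Kcnk3* (chromosome 5, 30890543 to 30927643, plus strand) encodes the potassium channel TASK-1, which is enriched in brown fat. It was at 7.32, 8.92 and 3.83 CPM in glands M11035, M11640 and M9232 and at 0.744, 0.262 and 0.150 CPM in the tumors. The groups of *Kcnk3* did not overlap, although its tumors held only 4, 2 and 1 fragments. Its log2 fold change was -3.01, and the pooled ratio of 18.1 had a counting interval of 8.54 to 46.1.

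*Dio2* (chromosome 12, 91962994 to 91976878, minus strand) encodes type 2 deiodinase, which makes active thyroid hormone inside brown adipocytes and in several other cell types. It was at 46.2, 29.7 and 28.7 CPM in glands M11035, M11640 and M9232 and at 32.6, 36.3 and 72.8 CPM in the tumors. The tissues overlapped, since gland M11035 lay above tumors T11035 and T11640, and *Dio2* was lower in the tumor in 1 of 3 mice. Its means were 34.9 ± 9.78 and 47.2 ± 22.2 CPM (SD, n = 3), so the log2 fold change of 0.37 was smaller than the spread between mice, whose own values were -0.50, 0.28 and 1.33. Without tumor T9232 the log2 fold change of *Dio2* was 0.01. Its exons overlap *Gm16738* on the other strand, which was not analysed here.

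**Figure D1:**
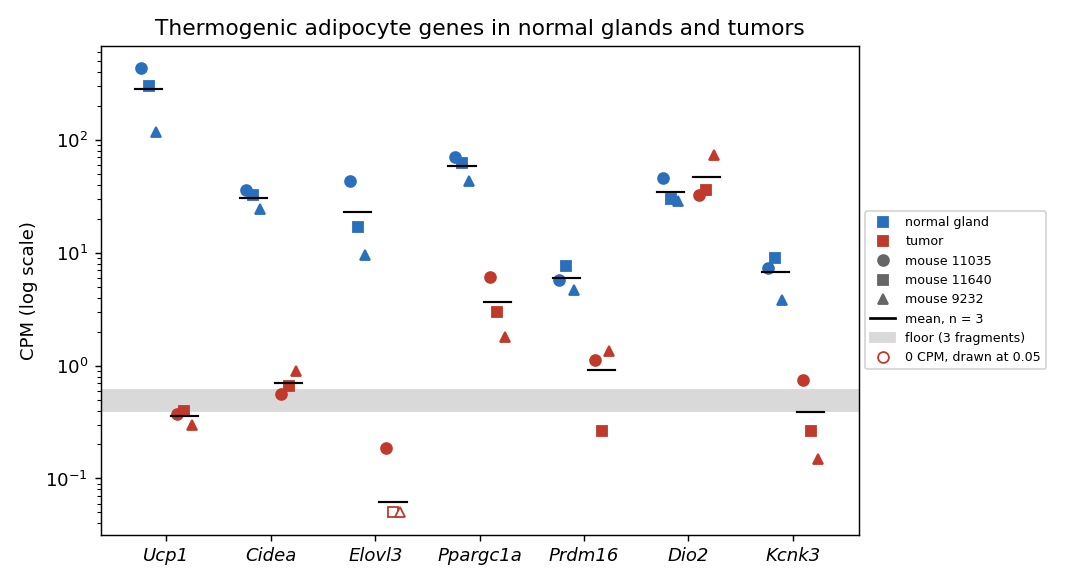
CPM of the 7 thermogenic genes in each library on a log axis, with glands in blue, tumors in red, 1 symbol per mouse and a bar at the mean of 3 mice; the gray band spans the floors of 3 fragments, and open symbols are libraries at 0. The tumors lie below the glands for 6 of the genes and overlap them for *Dio2*.

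With tumors T11035, T11640 and T9232 each set against the gland of its own mouse, the log2 fold change of *Ucp1* was -8.95, -8.39 and -7.21, that of *Cidea* -5.11, -4.83 and -4.14, and that of *Elovl3* -5.98, -5.13 and -4.33. *Prdm16* had -1.94, -3.41 and -1.48, and *Kcnk3* had -2.65, -3.63 and -2.74. The tumors held at most 9 fragments of any of these 5 genes, so the order of the mice is not resolved, and for *Ucp1* and *Elovl3* the values follow the gland level and the pseudocount. *Ppargc1a*, with 33, 23 and 12 tumor fragments, had -3.43, -4.17 and -4.25. Leaving out 1 library at a time, the log2 fold change stayed between -8.72 and -7.78 for *Ucp1*, between -4.86 and -4.57 for *Cidea*, between -4.36 and -3.59 for *Ppargc1a*, between -2.52 and -1.88 for *Prdm16* and between -3.33 and -2.77 for *Kcnk3*. The range was widest for *Elovl3*, from -5.63 without gland M9232 to -4.58 without M11035.

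The glands differed among themselves. All 7 genes were lowest in gland M9232, which was the lowest gland for 29.1% of the 14202 genes averaging 1 CPM or more in the glands. The highest gland was M11035 for 5 of the 7 genes and M11640 for *Prdm16* and *Kcnk3*. The ratio of the highest to the lowest gland was 4.48 for *Elovl3*, 3.67 for *Ucp1* and 2.33 for *Kcnk3*, and between 1.49 and 1.65 for *Cidea*, *Dio2*, *Ppargc1a* and *Prdm16*. Over the 14202 genes the median of this ratio was 1.48 and the 90th percentile 2.84. The spread among glands was part of how the 7 genes were selected, so it is a description and nothing is read from it. Summed over the 7 genes the level was 641, 457 and 232 CPM in M11035, M11640 and M9232, and *Ucp1* made up 67.4%, 65.3% and 50.8% of it.

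Levels of different genes were compared as CPM per kb of the longest transcript. In the glands *Ucp1* was at 172 ± 95.9 CPM per kb (SD, n = 3), *Cidea* at 26.5 ± 5.18, *Elovl3* at 12.3 ± 9.30, *Ppargc1a* at 9.14 ± 2.22, *Dio2* at 6.00 ± 1.68, *Kcnk3* at 1.76 ± 0.683 and *Prdm16* at 0.695 ± 0.174. *Ucp1* stood above *Cidea* in every gland without overlap, and *Dio2*, *Kcnk3* and *Prdm16* were also separated from each other on this scale. *Cidea* lay above *Ppargc1a* and *Dio2* without overlap, and above *Elovl3* within each gland although their ranges overlapped. The gland ranges of *Elovl3*, *Ppargc1a* and *Dio2* overlapped. Within each gland *Ppargc1a* and *Elovl3* lay above *Dio2*, though in M9232 *Elovl3* was at 5.09 against 4.94 CPM per kb. The order of *Elovl3* and *Ppargc1a* differed between glands, so it is not resolved. With the mean transcript length, *Ppargc1a* was at 22.7 CPM per kb and overlapped *Cidea* and *Elovl3* but not *Dio2*. On that scale *Prdm16* was at 1.19 and overlapped *Kcnk3*. In the tumors *Dio2* came first at 8.13 CPM per kb of the longest transcript, and the mean of each of the other 6 genes was under 1, while *Ppargc1a* was at 1.40 with the mean transcript length.

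The other genes of the pathway were tested with limma over all 15280 genes, where a DEG has an FDR of at most 0.05 and an FC of at least 2. By this rule 28.2% of all genes were DEGs, 14.5% upregulated and 13.7% downregulated. Lists are described by their counts and medians only.

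Upstream of *Ucp1*, 12 of 19 genes of β-adrenergic signaling and lipolysis were downregulated and 0 upregulated, with a median log2 fold change of -1.28. No gene of this list was upregulated by edgeR or DESeq2 either, and 0 were higher in the tumors at an unadjusted p under 0.05 (limma). *Adrb3*, the adipocyte β3-adrenergic receptor, was at 54.9, 55.3 and 25.3 CPM in glands M11035, M11640 and M9232 and at 0.558, 0.393 and 0.300 CPM in the tumors. It was lower in 3 of 3 mice (limma log2 fold change -5.56 ± 0.34 SE, adjusted p = 8.66e-06), and no tumor exceeded the floor, as for *Ucp1*. *Plin1*, which coats lipid droplets, fell the most on the list, from 73.7 ± 23.4 to 0.418 ± 0.433 CPM (SD, n = 3). *Gnas*, which encodes the stimulatory G protein α subunit and was the most abundant gene of the list in the glands, fell from 609 ± 67.4 to 263 ± 19.0 CPM. *Prkar1a*, a regulatory subunit of protein kinase A, had 337 ± 32.4 and 337 ± 55.6 CPM and was not called. The list therefore held both genes that were nearly absent from the tumors and signaling genes present in both tissues.

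Of 17 factors known to promote the thermogenic program, 8 were downregulated and 2 upregulated (median log2 fold change -1.10). *Ppara*, a fatty acid receptor that works with PGC-1α, fell the most, from 41.8 ± 18.4 to 0.586 ± 0.435 CPM (SD, n = 3; limma log2 fold change -5.24 ± 0.43 SE, adjusted p = 3.92e-05). *Pparg*, the master regulator of adipocytes, fell from 106 ± 41.7 to 8.71 ± 3.91 CPM. In the other direction *Bmp7*, a growth factor that drives brown adipocyte differentiation and is also made by epithelia, rose from 1.15 ± 0.867 to 30.0 ± 4.89 CPM (limma log2 fold change 4.32 ± 0.36 SE, adjusted p = 3.78e-05). *Cebpb* was the other upregulated gene (log2 fold change 1.34). *Gabpa*, the most abundant of these factors, had 233 ± 15.5 and 223 ± 19.8 CPM. Of 8 factors known to restrain the program, 3 were downregulated and 0 upregulated (median 0.12; 0 upregulated by edgeR and DESeq2, 2 higher at an unadjusted p under 0.05, limma), and limma called *Tle3* up without tumor T11640 (log2 fold change 1.03). *Nr1h3* and *Rb1* were among the downregulated ones, with log2 fold changes of -2.08 and -1.29, while *Tle3* had the highest value, 0.97 with all libraries.

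Around *Dio2*, the 6 genes of thyroid hormone transport and reception held 1 upregulated and 1 downregulated gene (median -0.36). *Thrb*, a thyroid hormone receptor, fell from 36.9 ± 8.29 to 6.10 ± 1.74 CPM (SD, n = 3), and *Crym*, which binds the hormone in the cytosol, rose from 1.46 ± 0.315 to 17.7 ± 10.6 CPM. *Slc16a10*, a transporter, was the most abundant and was not called (log2 fold change -0.60, adjusted p = 0.033, limma). *Dio3*, the deiodinase that inactivates thyroid hormone, had a total of 1 fragment in the glands and 62 in the tumors and was upregulated.

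Downstream, fatty acid oxidation supplies the fuel. Of its 20 genes, 19 were downregulated and 0 upregulated, also 0 by edgeR, DESeq2 and an unadjusted p under 0.05 (limma), with a median log2 fold change of -2.27. *Acsl1*, which activates fatty acids, was the most abundant in the glands and fell the most, from 1335 ± 452 to 95.4 ± 12.6 CPM (SD, n = 3; limma log2 fold change -3.75 ± 0.23 SE, adjusted p = 9.55e-06). *Acaa2*, a thiolase, fell the least, with a log2 fold change of -1.33. *Acads* was not called (log2 fold change -1.82, adjusted p = 0.0763, limma), and DESeq2 called it (log2 fold change -2.22).

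Of 21 other genes enriched in brown adipocytes, 16 were downregulated and 1 upregulated (median -2.36). *Otop1* was at 44.1, 52.5 and 20.4 CPM in glands M11035, M11640 and M9232 and did not exceed the floor in any tumor. *Pdk4*, a kinase that spares glucose by blocking pyruvate dehydrogenase, was the most abundant in the glands and fell from 266 ± 20.8 to 7.64 ± 0.814 CPM (SD, n = 3). *Cox8b*, a subunit of cytochrome c oxidase in brown fat and muscle, was at 25.6, 13.5 and 6.16 CPM in the glands, an order of glands like that of *Ucp1* and *Elovl3*. *Mpzl2* rose, with a log2 fold change of 1.99. Of 11 genes enriched in beige adipocytes, 5 were downregulated and 2 upregulated (median -0.95). *Tnfrsf9*, which T cells also express, rose from 4.60 ± 1.11 to 35.5 ± 4.39 CPM and *Tmem26* had a log2 fold change of 1.25, a call lost without tumor T9232 (log2 fold change 1.01). *Hoxc10* had the largest fall in limma (log2 fold change -3.60), but its pooled gland-to-tumor ratio was 6.48, against 10.1 for *Slc27a1* (limma log2 fold change -3.29). The tumors were unlike each other for *Hoxc10*, with 10.8, 0.262 and 0 CPM in T11035, T11640 and T9232. Glands M11035, M11640 and M9232 had 15.2, 23.8 and 19.4 CPM of it. *Hoxc10* lost its call without gland M11640, tumor T11640 or tumor T9232, at log2 fold changes of -3.45, -3.05 and -2.75. It also lost the call with edgeR (-2.51) and DESeq2 (-2.40). *Sp100*, the most abundant of these genes, was not called.

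Heat can also come from creatine and calcium cycling without UCP1. Of 14 genes on that list, 5 were downregulated and 3 upregulated (median -0.76). The upregulated genes belong to creatine handling, namely *Ckmt1* (log2 fold change 3.68), *Gatm* (1.76) and *Slc6a8* (1.38). *Ryr2*, a calcium release channel, had the lowest limma log2 fold change of the list (-3.93), on the scale that understates the change of low genes. Its pooled gland-to-tumor ratio was 19.8 (counting interval 13.5 to 30.1). That of *Ckmt2*, at or under the floor in every tumor, was higher, at 109 (37.0 to 532). *Atp2a2*, the calcium pump, was the most abundant in the tumors and had a log2 fold change of 0.55, under the FC threshold. *Ckmt2* and *Ryr1*, which are muscle genes too, lost their calls without gland M11035 or M11640 or without any single tumor. Without gland M11035 their log2 fold changes were -2.56 and -2.23, and without M11640 they were -3.40 and -2.92. Without tumors T11035, T11640 and T9232 in turn they were -3.64, -4.06 and -3.64 for *Ckmt2* and -3.50, -3.36 and -3.20 for *Ryr1*.

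**Figure D2:**
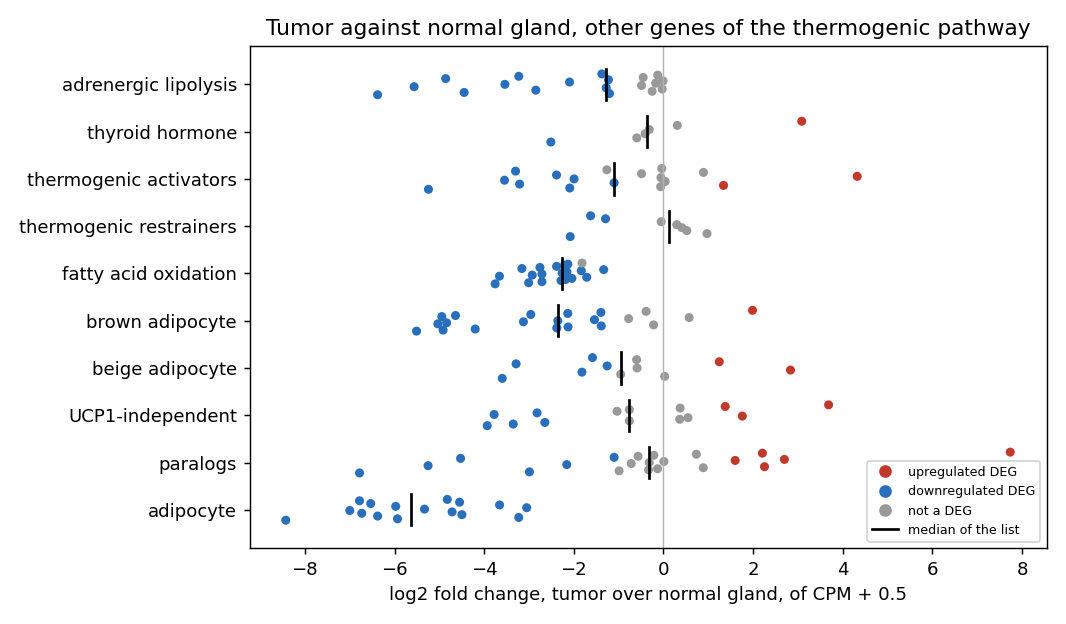
Log2 fold change, tumor over normal gland, of the other genes of the pathway and of adipocyte markers, 1 point per gene, with a bar at the median of each list. The medians run from 0.12 for factors that restrain the program to -5.63 for adipocyte markers.

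Relatives of the 7 genes did not move as a block. Of 21 family members, 6 were downregulated and 5 upregulated (median -0.32). *Ucp2*, which many cell types express, was at 217 ± 72.7 and 144 ± 32.2 CPM (SD, n = 3) and was not called, whereas *Ucp3* fell from 24.2 ± 13.1 to 0.535 ± 0.390 CPM. *Cidec*, the relative of *Cidea* in white fat, fell from 182 ± 44.4 to 1.31 ± 0.890 CPM (limma log2 fold change -6.78 ± 0.41 SE, adjusted p = 9e-06). The elongases split, since *Elovl6* fell from 1906 ± 989 to 45.7 ± 3.14 CPM while *Elovl4*, which makes the very long fatty acids of skin, rose from 0.867 ± 0.482 to 301 ± 130 CPM (limma log2 fold change 7.74 ± 0.39 SE, adjusted p = 3.41e-06). *Elovl1* and *Elovl7* also rose (1.60 and 2.25), and *Elovl5* (-0.99) was just under the FC threshold with limma. It was called without gland M11035 (-1.03), gland M9232 (-1.09) or tumor T11640 (-1.07), and edgeR with all libraries called it just past the threshold. *Kcnk2* and *Kcnk5* fell (-2.99 and -2.16). *Ppargc1b* had a log2 fold change of -1.10 and was under the FC threshold without gland M11035 (-0.996) or tumor T9232 (-0.90), and *Mecom*, the closest relative of *Prdm16*, was not called. *Cpt1a*, the liver form of the enzyme, had 89.7 ± 27.1 and 52.7 ± 6.60 CPM and was not called, and *Cpt1c* rose from 1.09 ± 0.355 to 6.72 ± 0.503 CPM.

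Markers of adipocytes of any kind moved with the thermogenic genes. All 16 were downregulated, with a median of -5.63, and their summed level was 11034, 17423 and 9612 CPM in glands M11035, M11640 and M9232 against 343, 558 and 405 CPM in the tumors. *Lpl* and *Fabp4* had the highest means in both tissues, *Pck1* fell the most, and *Slc7a10* was at 0 in tumors T11640 and T9232. Per 1000 CPM of these summed markers, *Ucp1* was at 39.2, 17.1 and 12.3 in the glands and 1.08, 0.705 and 0.739 in the tumors. *Ucp1* was thus lower in the tumors than in the glands also relative to this sum. *Fabp4*, *Lpl* and *Cd36* had the highest tumor means in it, at 155, 134 and 97.6 CPM, so the tumor sum rests mostly on them. Their pooled gland-to-tumor ratios were 23.3, 27.1 and 22.4, in a list that ran from 9.60 for *Lipe* to 296 for *Pck1*. Which cells of the tumors held these fragments was not tested. The CPM that chose *Ucp1* enters its ratio, so the ratio is a description and nothing is read from it. For *Elovl3* the ratio was 3.89, 0.976 and 0.996 in the glands, and with 1, 0 and 0 tumor fragments a difference in it was not resolved at this depth. The same ratio overlapped between the tissues for *Cidea* (1.86 to 3.26 in the glands, 1.17 to 2.22 in the tumors), *Ppargc1a* (3.60 to 6.45, 4.43 to 17.9), *Prdm16* (0.436 to 0.516, 0.470 to 3.33) and *Kcnk3* (0.398 to 0.663, 0.370 to 2.17). For *Dio2* the ratio was 1.71 to 4.18 in the glands and 65.1 to 180 in the tumors, with no overlap. Relative to *Adipoq* alone, *Ucp1* again was lower in the tumors (96.8 to 286 per 1000, against 394 to 1224), while the tumor values of *Cidea*, *Ppargc1a*, *Prdm16* and *Kcnk3* lay above those of the glands. Tumor values of *Adipoq* were 3.72, 4.06 and 1.05 CPM, so ratios to it are coarse. With an adipocyte list without *Cfd*, *Lpl* and *Cd36*, added after the values were seen, *Ucp1* again did not overlap between the tissues. That list kept *Fabp4*, at 146, 186 and 132 CPM in tumors T11035, T11640 and T9232. For *Ucp1* relative to *Pck1* alone, T9232 lay above every gland, and relative to *Cidec* alone it lay within their range. T11035 and T11640 lay below the glands in both. T9232 held 2, 3 and 2 fragments of *Ucp1*, *Pck1* and *Cidec*, so these ratios are coarse too.

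Other cell types differed between libraries too. Of 19 skeletal muscle markers, 9 were downregulated (median -4.10, or -4.76 with the genes at the floor in every tumor set to their bound), and their summed level was 20570, 7230 and 445 CPM in glands M11035, M11640 and M9232 and 147, 74.4 and 89.3 CPM in the tumors. The count was 4, 2 and 18 without gland M11035, M11640 or M9232 and 3, 2 and 2 without tumor T11035, T11640 or T9232. The order of the glands is that of *Ucp1* and *Elovl3*. *Ttn* was the most abundant. In M9232, 6 of the markers (*Acta1*, *Ckm*, *Myh7*, *Pvalb*, *Myoz1* and *Actn3*) were at 0, while *Ttn* was at 372 CPM and *Neb* at 59.1 CPM, above every tumor. With M9232 as the only gland, an alternative added after the values were seen, the log2 fold change was -7.11 for *Ucp1*, -4.18 for *Elovl3* and -3.54 for *Ppargc1a*, and 18 of the 20 fatty acid oxidation genes and 13 of the 21 brown adipocyte genes were downregulated. The 9 milk genes ran the other way among the glands, with 3807, 5992 and 54863 CPM in M11035, M11640 and M9232 and 850, 546 and 217 CPM in the tumors, and all 9 were downregulated (median -4.91, or -5.79 with bounds). Without tumor T11035, T11640 or T9232 the count was 8, 6 and 7, and without gland M9232 it was 8. *Csn1s1*, the most abundant of them, lost its call without tumor T11640 (log2 fold change -4.07) or T9232 (-3.01). *Wap* lost it without any single tumor (-4.51, -4.45 and -4.29) and *Xdh* without gland M9232 (-0.87) or tumor T11640 (-1.10). DESeq2 called 6 of the 9 and gave no adjusted p for the others, so it made no call on those. The part of muscle and of milk in the differences among glands was not tested.

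**Figure D3:**
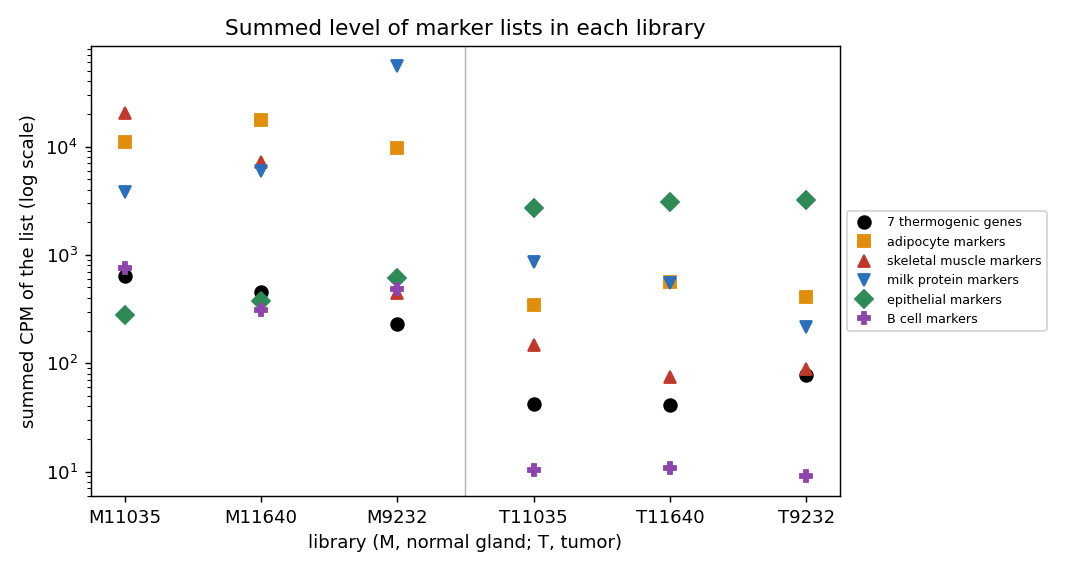
Summed CPM of the 7 thermogenic genes and of 5 marker lists in each library, on a log axis, 1 symbol per list. The 7 genes sum to 641 CPM in gland M11035 and 232 CPM in M9232, where skeletal muscle markers are at 445 CPM and milk genes are highest.

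Epithelial markers moved opposite to the thermogenic genes, with 10 of 13 upregulated and 0 downregulated (median 2.18), also 0 by edgeR, DESeq2 and an unadjusted p under 0.05 (limma). Their sum was 278, 378 and 612 CPM in glands M11035, M11640 and M9232 and 2682, 3051 and 3191 CPM in the tumors, with *Krt5* the most abundant in the tumors and *Epcam* in the glands. Of 7 B cell and 8 T cell markers, all were downregulated (medians -4.80 and -3.23), with *Cr2* and *Cd4* the most abundant. The B cell sum was 754, 308 and 484 CPM in the glands and 10.2, 10.7 and 9.14 CPM in the tumors, and the T cell sum was 487, 191 and 350 CPM against 28.5, 30.1 and 44.2 CPM, an order of glands unlike that of *Ucp1*. Endothelial markers had 3 of 9 downregulated (median -0.41), smooth muscle and pericyte markers 2 of 9 downregulated and 1 upregulated (-0.41), fibroblast markers 1 of 8 and 3 (0.64), macrophage markers 1 of 8 and 1 (0.46) and sebaceous markers 2 of 5 and 2 (-0.04). Of 4 Schwann cell markers, 2 were downregulated (median -1.39), and the sympathetic nerve markers *Th*, *Dbh* and *Npy* were not analysed here. The share of these cell types in the values of the 7 genes was not tested.

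For each of the 7 genes, the most similar profiles were sought as the smallest root mean square distance of centred log2(CPM + 0.5) over the 6 libraries, among the 14712 genes that averaged 1 CPM or more. Nearest to *Ucp1* were *Gpd1* (0.717), *Ces1d*, *Thrsp*, *Paqr9* and *Adipoq*, and its nearest profile was farther away than that of any other of the 7 genes. *Cidea* lay closest to *Slc4a4* (0.103), followed by *Cpne4*, *Pdk4*, *Vwa3a* and *Clic5*. *Ppargc1a* lay closest to *Dtna* (0.176) and *Adra1a*, *Prdm16* to *Hoxa7* (0.161) and *Col6a5*, and *Kcnk3* to *Pfkfb1* (0.180) and *Proca1*. Among the nearest to *Elovl3* were *Cox8b*, *Fcer2a*, *Adrb3* and *Plin4*, of which *Cox8b* and *Adrb3* are named above as genes of brown adipocytes and of the adrenergic signal. *Dio2* lay closest to *Arpc4* (0.083), and *Kdm6b* was also among its nearest. Neither is an adipocyte gene.

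Promoters are shown because cyclic AMP induces several of these genes through the element TGACGTCA, and *Ucp1* and *Dio2*, both of which are known to respond to it, had unlike levels in the tumors. RefSeq promoters (GRCm38.p6) were matched for 4 of the 8 genes, and the 250 bases before the start were searched on both strands for TGACGTCA, its first 5 bases TGACG, the nuclear receptor half-site AGGTCA and the TATA motifs TATAAA and TATATA. The *Dio2* promoter (chr12:90739039-90739288, minus strand) held TGACGTCA, 95 to 88 bases before the start, which 1.55% of 32851 promoters hold, and TATAAA (12.4%). The *Ucp1* promoter (chr8:83290098-83290347, plus strand) held TGACG (17.8% of promoters), 147 to 143 bases before the start, AGGTCA (14%) and TATATA (5.25%). The *Ppargc1a* promoter (chr5:51567726-51567975, minus strand) held TGACG on the opposite strand, and the *Prdm16* promoter held none of these motifs, which says only that these letters are not in this window. Capitals mark TGACG on either strand, and in *Dio2* the whole TGACGTCA, in which 2 TGACG matches overlap.
Ucp1: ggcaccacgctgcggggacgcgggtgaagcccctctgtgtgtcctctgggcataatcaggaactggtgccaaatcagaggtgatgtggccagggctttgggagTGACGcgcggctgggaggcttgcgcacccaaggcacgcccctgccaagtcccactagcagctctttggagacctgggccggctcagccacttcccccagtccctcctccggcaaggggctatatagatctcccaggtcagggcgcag
Dio2: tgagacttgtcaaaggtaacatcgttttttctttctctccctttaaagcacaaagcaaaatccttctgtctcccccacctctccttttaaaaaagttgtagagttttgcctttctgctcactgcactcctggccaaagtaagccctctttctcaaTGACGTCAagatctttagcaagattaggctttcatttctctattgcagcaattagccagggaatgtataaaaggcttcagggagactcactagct
Ppargc1a: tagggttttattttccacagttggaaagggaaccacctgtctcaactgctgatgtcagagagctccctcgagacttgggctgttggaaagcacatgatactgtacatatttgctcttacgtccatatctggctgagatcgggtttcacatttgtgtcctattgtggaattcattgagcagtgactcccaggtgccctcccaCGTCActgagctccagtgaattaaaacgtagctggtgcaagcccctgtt
A match is a description of the sequence and not a site of binding.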

How the data were processed

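RNA-Seq was analysed from 6 libraries, grouped as tumor or normal gland from the labels, and 0 per-sample columns were left out. Per the labels and the methods of the study, the authors prepared libraries with NuGEN Ovation V2, mapped reads to mm9 with TopHat2 2.0.3, counted fragments with HTSeq 0.5.3p9 and removed genes with under 10 fragments. The authors deposited a normalized signal per gene, CPM from edgeR 3.6.1 on its effective library size, so columns sum to 952151 to 1041166 CPM. Because of these sums the unit was recorded as signal, which takes the same test. Whole fragments were recovered for 100% of the values (tolerance 0.01), and on them edgeR 4.0.16 (quasi-likelihood) called 2238 genes up and 2224 down.

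The members and lists were chosen with earlier results of these data known. For other genes, log2(CPM + 0.5) was fitted in limma 3.58.1 (R 4.3.3; trended variance, no block, two-sided), with Benjamini-Hochberg adjustment over 15280 genes, which gave 2212 upregulated and 2097 downregulated DEGs. The procedure was tested on simulated data. DESeq2 1.42.0 on fragments, other pseudocounts, a filter, other totals, the block and leaving out libraries were alternatives. Tumor and gland of a number come from the same mouse, so the numbers pair the samples, and the deviations from the group means correlated with r = 0.107, 0.151 and 0.0168 over 14712 genes. No 2 libraries of the same tissue were copies of each other (lowest chi-square per degree of freedom 13.0). Named genes are the 7 genes and their relatives, the nearest profiles, the most abundant (mean of 6 libraries), most raised and most lowered gene of each list, and cell type markers at 0, and some of the nearest profiles are not reported here. *Adrb3*, *Pparg*, *Cebpb*, *Cox8b*, *Acads*, *Tmem26*, *Slc27a1*, *Gatm*, *Slc6a8*, *Ckmt2*, *Ryr1*, *Rb1*, *Epcam*, *Fabp4*, *Neb*, *Cfd* and *Cd36* fall partly outside that rule and were chosen after their values were seen. Positions, transcript lengths and exon overlaps are from the mm9 annotation (GENCODE vM1). The authors counted fragments on RefSeq genes, whose lengths and overlaps could differ from these. Exons of *Rb1*, *Cebpb*, *Gabpa*, *Slc7a10*, *Plin4* and *Elovl1* overlap other genes of the table, and those of *Elovl3*, *Gnas*, *Ckmt1*, *Ckmt2*, *Ryr1*, *Hoxc10*, *Nr1h3*, *Mecom*, *Sp100*, *Ttn* and *Ckm* overlap genes not analysed here, so their fragments are uncertain.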

Additional observations from a re-analysis of the deposited data

How the results depend on the processing

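The 7 thermogenic genes and the lists were recomputed under 15 other settings. No log2 fold change of the 7 genes and no call of a listed gene reversed. Of 3715 alternative values of 248 listed genes, 3532 kept their call, 126 lost it and 57 gained it. With pseudocount 0.1 the log2 fold change was -9.09 for *Ucp1*, -5.27 for *Cidea*, -7.08 for *Elovl3* and -3.92 for *Kcnk3*, and with pseudocount 1 it was -7.52 for *Ucp1*, -4.21 for *Cidea*, -4.26 for *Elovl3* and -2.43 for *Kcnk3*. On recovered fragments it was -9.56 for *Ucp1*, -5.40 for *Cidea*, -8.34 for *Elovl3* and -4.13 for *Kcnk3* with edgeR, and -9.63, -5.43, -8.70 and -4.19 with DESeq2, and each called 17 skeletal muscle markers downregulated. With genes of a mean of at least 1 CPM only, 1 sebaceous marker was downregulated, since this filter removed *Mc5r*, the other one. The block by mouse, the pairing of the design, gave 2205 upregulated and 2093 downregulated DEGs and changed the call of 2 listed genes, *Myh4* and *Pvalb*, which it called. With M9232 as the only gland, which is assumed to vary like the tumors and was chosen after seeing the data, log2 fold changes were -7.11 for *Ucp1*, -4.37 for *Cidea* and -2.35 for *Kcnk3*. Upregulated counts were then 1 for beige, 1 for skeletal muscle, 6 for epithelial, 1 for sebaceous and 0 for macrophage markers (limma). Downregulated counts were 2 for beige, 2 for UCP1-independent, 2 for skeletal muscle, 1 for sebaceous, 1 for endothelial, 1 for smooth muscle, 0 for fibroblast and 0 for Schwann cell genes. Also added after seeing the data were totals without milk and muscle genes (2106 up, 2231 down) and an adipocyte list without *Cfd*, *Lpl* and *Cd36*. Leaving out each library in turn, downregulated counts ran from 2 to 18 for skeletal muscle (18 without gland M9232), 3 to 6 for UCP1-independent, 3 to 5 for beige, 1 to 3 for endothelial, 0 to 1 for fibroblast, 0 to 1 for macrophage, 6 to 9 for milk, 1 to 4 for Schwann cell, 1 to 2 for sebaceous and 1 to 3 for smooth muscle genes. Upregulated counts ran from 1 to 2 for macrophage, 0 to 1 for restraining and 1 to 2 for beige genes. With the mean transcript length *Ppargc1a* was at 22.7 and *Prdm16* at 1.19 CPM per kb. Apart from the effect of fewer genes or samples, the cause was not tested. With 3 mice and tumor values near the floor, the size of the differences of *Ucp1*, *Elovl3* and *Kcnk3* is limited by depth.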
